A study of Mus musculus with 8 samples.

Results

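The genes described here are those of the classical major histocompatibility complex class II pathway of the mouse and its master regulator, followed through epithelial, endothelial, stromal and immune cells of the intestine. They were chosen by symbol: H2-Aa, H2-Ab1, H2-Eb1, H2-DMa, H2-DMb1, Cd74 and Ciita. That is 7 genes of the 32285 in the deposited count matrices, and all 7 were found in each of the 8 libraries. The study addressed how lymphatic vessels and intestinal stem cells neighbour and signal to each other.

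The droplet libraries were 4 in number, 1 per condition, so no difference between them has a replicate check and no p-value is given. The organoid libraries came from small intestinal epithelium of C57BL/6 mice at passage 1, grown alone (control) or in coculture with a partner that the labels do not name. For each culture 16 wells were pooled and 100000 epithelial cells were sorted. The tissue libraries came from small and large intestine of C57BL/6 mice and of Lgr5-eGFP-ires-CreERT2 mice on that background, whose Lgr5 locus drives green fluorescent protein and an inducible Cre recombinase. Each was a mixture of 50000 live cells enriched with 50000 LGR5-positive stem cells and with 20000 to 25000 lymphatic endothelial cells sorted on CD31, PDPN and LYVE1, so the cell numbers in these libraries reflect the sort as well as the tissue. The spatial (Visium) libraries were sections of 10 µm, 2 from small and 2 from large intestine of C57BL/6 mice, prepared with the immunofluorescence protocol, and both sections of 1 tissue are technical duplicates.

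Depth differed between libraries. After filtering, the control organoids held 538 cells with a median of 73664 unique molecular identifiers (UMIs) per cell, the cocultured organoids 1028 cells with 86295, the small intestine 2695 cells with 11810 and the large intestine 5882 cells with 21761. The 4 sections held 2094 to 2571 spots. Of the barcodes, 5497 of 8842 in the small and 2060 of 8646 in the large intestinal library had over 20% mitochondrial UMIs and were left out. The tissue libraries shared 25 cell barcodes and the organoid libraries 0. Cells were clustered without the 7 genes and without the pathway lists used below, and clusters were named from marker genes. A level is given in counts-per-million (CPM): the UMIs of a gene summed over the cells of a class and scaled to the summed UMIs of those cells, with a 95% exact Poisson interval in brackets. These intervals, and those on shares and ratios, cover counting error only and not differences between mice, cultures or libraries.

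Class II molecules are pairs of an alpha and a beta chain that present peptides from engulfed or secreted proteins to CD4 T cells. H2-Aa and H2-Ab1 encode the chains of I-A, and H2-Eb1 encodes the beta chain of I-E, whose alpha chain is not made in C57BL/6 mice. Cd74, the invariant chain, guides the newly made pair to endosomes and plugs its groove, and H2-DM, built from H2-DMa and H2-DMb1, swaps the plug for a peptide. Ciita is a co-activator that sits on the promoters of all these genes and is itself induced by interferon gamma in cells other than professional antigen-presenting cells, while B cells, dendritic cells and macrophages carry class II at rest. In the intestine, epithelial cells including stem cells are known to carry class II at levels that vary with the microbiota and with interferon gamma.

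The promoters of these genes are shown because the genes moved together in the large comparisons below, and their known shared element is an X box bound by the RFX complex followed at a fixed distance by a Y box bound by NF-Y. RefSeq promoter windows (GRCm38.p6, the mm10 build, 250 bases before to 50 after each start) were held for H2-Aa, H2-Eb1, H2-DMb1 and, with 2 starts, H2-DMa. The windows were searched on both strands for GNAAC followed, with 20 to 30 bases between, by TGATTGG. This pattern was chosen after the sequences had been seen. It was found in 106 of 32851 windows, or 0.323%, whereas TGATTGG alone was found in 7.82%. The stretches below are read on the strand of the gene, with GNAAC and TGATTGG in capitals. The first 3 are members and the last 3 are the related genes H2-Oa and H2-Ob, the chains of the H2-DM inhibitor, and H2-Eb2.
H2-Aa, minus strand, chr17:34287862-34287909: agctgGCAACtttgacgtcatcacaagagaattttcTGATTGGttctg
H2-Eb1, plus strand, chr17:34305771-34305817: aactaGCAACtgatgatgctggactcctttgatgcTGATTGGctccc
H2-DMb1, plus strand, chr17:34153092-34153139: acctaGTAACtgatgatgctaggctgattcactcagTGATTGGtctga
H2-Oa, plus strand, chr17:34092298-34092345: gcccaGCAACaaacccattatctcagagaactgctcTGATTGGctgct
H2-Ob, plus strand, chr17:34238813-34238857: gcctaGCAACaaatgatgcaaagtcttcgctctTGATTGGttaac
H2-Eb2, plus strand, chr17:34325538-34325584: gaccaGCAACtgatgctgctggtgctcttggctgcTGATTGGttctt
The distance between the boxes was 26 bases in H2-Aa, H2-DMb1 and H2-Oa, 25 in H2-Eb1 and H2-Eb2 and 23 in H2-Ob. Neither window of H2-DMa held the pattern, nor did those of H2-DMb2 and of the class I genes B2m, H2-K1 and H2-D1, which says only that these letters are not in these windows. H2-Ab1, Cd74 and Ciita had no window here.

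In the RefSeq annotation, with the identifiers of the count matrices in brackets, the 5 histocompatibility genes lie on chromosome 17 (mm10): H2-Aa (ENSMUSG00000036594) at chr17:34282744-34287823, H2-Ab1 (ENSMUSG00000073421) at chr17:34263227-34269418, H2-Eb1 (ENSMUSG00000060586) at chr17:34305867-34316674, H2-DMa (ENSMUSG00000037649) at chr17:34119693-34139101 and H2-DMb1 (ENSMUSG00000079547) at chr17:34153191-34160229. Ciita (ENSMUSG00000022504) lies apart from them at chr16:10480014-10531064. The droplet reads come from transcript ends, so a level cannot be compared between genes. Levels below are compared for 1 gene, or for the sum of the 7, between cells, and where UMIs of one gene are set against those of another, that ratio is compared between cell classes.

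Among the named classes, macrophage/monocyte-like and B-like cells carried by far the highest levels. In the small intestine, the 124 macrophage/monocyte-like cells had H2-Aa at 9184 CPM [8937, 9436] and the 301 B-like cells at 4234 [4109, 4362]. The 160 macrophage/monocyte-like cells of the large intestine had H2-Aa at 10866 CPM and its 123 B-like cells at 4464. Cd74, the invariant chain, stood at 21180 and 14460 CPM in these 2 classes of the small intestine and at 27129 and 15733 in those of the large intestine. The macrophage/monocyte-like cells were thus above the B-like cells in both tissues for the antigen-presenting chains and the invariant chain.

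Over B-like cells, the macrophage/monocyte-like cells were at least 2-fold higher for 4 of 7 members in each tissue, namely H2-Aa, H2-Ab1, H2-Eb1 and H2-DMb1, against 18.2% of all measured genes in the small and 25.7% in the large intestine. Ciita did not follow: its log2 ratio was −0.59 [−0.83, −0.36] in the small intestine, where the B-like cells were higher, and −0.10 [−0.43, 0.25] in the large intestine. The regulator was thus not ordered like the genes it is known to switch on, between these classes. After each cell was thinned to 2000 UMIs, a Ciita UMI was seen in 61.9% of 273 B-like cells and in 42.7% of 89 macrophage/monocyte-like cells of the small intestine, and in 39.3% and 38.2% in the large intestine. Ciita was seen in 0 of 56 smooth muscle/pericyte-like cells of the small intestine, a class that should lack it. The median depths before thinning were 2802 UMIs in B-like, 3500 in macrophage/monocyte-like and 6656 in smooth muscle/pericyte-like cells of the small intestine.

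B-like cells of both tissues were close in class II. Their summed class II level was 25985 CPM in the small and 27831 CPM in the large intestine, a log2 ratio of −0.10 [−0.13, −0.07]. Ciita was at 538 CPM [494, 585] and 267 CPM [217, 326], a log2 ratio of 1.01 [0.70, 1.34], and was the 1 member of 7 past 2-fold higher, a share near the 12.4% of all genes.

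Further clusters with high class II could not be named from the markers. A set of 47 small intestinal cells led by Lyz2, S100a4 and Lsp1 had a class II sum of 47548 CPM, with the macrophage complement gene C1qb at 387 CPM. A set of 37 large intestinal cells led by Cst3, Gm2a and Lsp1 had a sum of 54705 CPM with C1qb at 3.06 CPM, against 4630 CPM of C1qb in the macrophage/monocyte-like cells. Another 16 small intestinal cells, led by Siglech, a gene of plasmacytoid dendritic cells, had a sum of 13857 CPM.

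Plasma-like cells kept Cd74 while the other members were low. Cd74 stood at 2945 CPM [2875, 3017] in 89 small intestinal and at 2499 CPM [2459, 2540] in 291 large intestinal plasma-like cells. H2-Aa was at 55.6 and 81.4 CPM there, and Ciita was found in 2 UMIs in the small and 0 UMIs in the large intestine, of 5869750 UMIs counted there. Plasma cells are the antibody-secreting end stage of B cells. For every 1000 UMIs of Cd74 there were 18.9 UMIs of H2-Aa in the small and 32.6 in the large intestinal plasma-like cells, against 293 and 284 in B-like cells. Among the thinned cells Cd74 was seen in 97.8% and 98.3% of plasma-like cells, and any of H2-Aa, H2-Ab1 and H2-Eb1 in 39.3% and 55.1%.

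**Figure D1:**
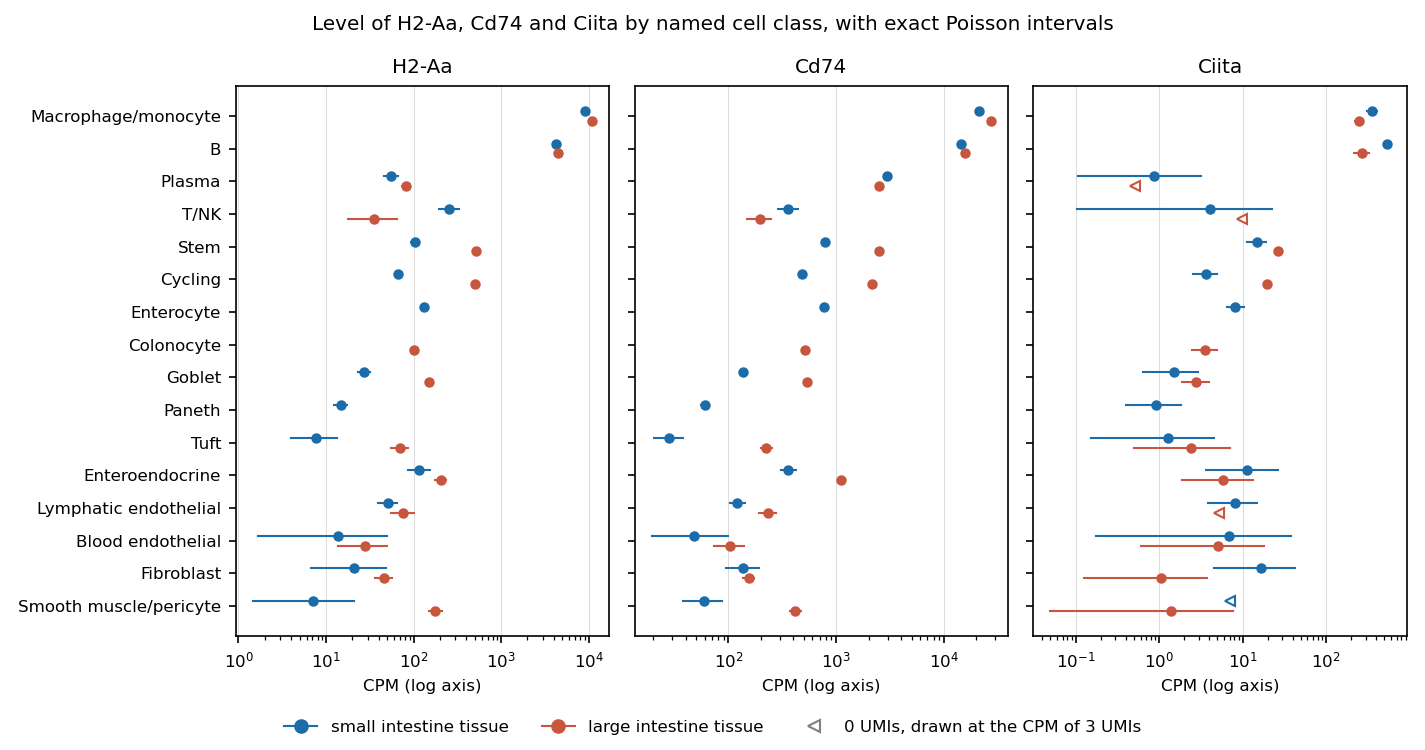
Levels of H2-Aa, Cd74 and Ciita (CPM, log axes) in each named cell class of the small and the large intestinal tissue library, with 95% exact Poisson intervals. Open triangles mark classes with 0 UMIs, drawn at the CPM of 3 UMIs. Macrophage/monocyte-like and B-like cells lie at the top in every panel, plasma-like cells are high for Cd74 alone, and for H2-Aa the stem-like, cycling-like, goblet-like and tuft-like cells of the large intestine lie above the same classes of the small.

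Epithelial cells held lower levels. The named epithelial classes of the small intestine together (1362 cells) had H2-Aa at 67.3 CPM, Cd74 at 421 CPM and Ciita at 4.92 CPM. Defining markers of immune cells were near 0 in them: C1qb stood at 2.07 CPM in them against 3847 CPM in macrophage/monocyte-like cells, and Cd79a, a B cell receptor gene, at 2.72 CPM against 2241 CPM in B-like cells. In the large intestine (2281 cells) C1qb stood at 1.63 against 4630 CPM and Cd79a at 0.59 against 2874 CPM.

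Within the small intestinal epithelium, the absorptive and stem-like cells were high and the secretory cells low. H2-Aa stood at 131 CPM [124, 139] in 341 enterocyte-like cells, at 104 CPM [93.8, 115] in 168 stem-like cells and at 67.1 CPM [62.2, 72.2] in 346 cycling-like cells. It stood at 27.2 CPM in goblet-like, the mucus-making cells, at 14.8 CPM in Paneth-like, the defensin-making cells of the crypt base, and at 7.62 CPM [3.93, 13.3] in tuft-like cells. The intervals of neighbours in this order did not overlap except where Paneth-like and tuft-like cells touched. Enteroendocrine-like cells read 116 CPM, but 82.4% of their 51 H2-Aa UMIs came from 1 of 32 cells and C1qb stood at 50.0 CPM there. That class is therefore not placed in the order. With doublets kept, H2-Aa in stem-like cells was above that in enterocyte-like cells, at a log2 ratio of 0.094, so these 2 classes have no firm order.

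By Cd74, too, stem-like and enterocyte-like cells were not told apart. Cd74 stood at 785 CPM [757, 814] in stem-like and at 770 CPM [752, 787] in enterocyte-like cells, intervals that overlap, then at 478 CPM in cycling-like, 137 in goblet-like, 61.0 in Paneth-like and 27.9 in tuft-like cells. Ciita was highest in stem-like cells, at 14.9 CPM [11.3, 19.4], against 8.24 CPM [6.51, 10.3] in enterocyte-like and 3.64 CPM [2.57, 4.99] in cycling-like cells. After thinning, any of H2-Aa, H2-Ab1 and H2-Eb1 was seen in 53.7% [45.7, 61.5] of 164 stem-like, 40.5% of 336 enterocyte-like, 30.9% of 304 cycling-like and 4.04% of 99 tuft-like cells. The background of such a share was 10.7% in 56 smooth muscle/pericyte-like cells, whose median depth was 6656 UMIs against 20553 in the stem-like cells before thinning. Without thinning, a Cd74 UMI was seen in 86.9% of stem-like and in 22.8% of smooth muscle/pericyte-like cells. The share in tuft-like cells thus did not exceed the background, nor did the 9.93% [5.67, 15.9] of 151 Paneth-like cells, while those of the absorptive and stem-like cells did.

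Among the named classes of the large intestinal epithelium, stem-like and cycling-like cells were on top. H2-Aa stood at 523 CPM [513, 533] in 771 stem-like cells, at 503 CPM [494, 513] in 596 cycling-like cells and at 204 CPM in 55 enteroendocrine-like cells. Goblet-like cells had 151 CPM [144, 158], colonocyte-like cells, the absorptive cells of the colon, 102 CPM [95.5, 108] and tuft-like cells 69.9 CPM [55.9, 86.3]. The stem-like cells held Cd74 at 2487 CPM [2464, 2509] and Ciita at 26.5 CPM [24.2, 28.9]. C1qb in these stem-like cells was at 1.62 CPM and Cd79a at 0.31 CPM, so both defining markers were near 0. Any of the 3 presenting chains was seen in 86.3% [83.7, 88.7] of 769 thinned stem-like cells, in 27.7% of 347 colonocyte-like cells and in 11.2% of 107 smooth muscle/pericyte-like cells, with median depths of 24196, 27256 and 5883 UMIs before thinning.

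Class II in the stem-like classes was spread over the cells. Without thinning, 98.7% of large intestinal stem-like cells and 34.2% of smooth muscle/pericyte-like cells held a Cd74 UMI, and the top stem-like cell held 0.587% of the Cd74 UMIs of its class. In the smooth muscle/pericyte-like class 1 cell held 76.0% of them. In the small intestine the top stem-like cell held 2.6% of the Cd74 UMIs.

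Clusters within a class varied. An enterocyte-like cluster led by Fabp6, an ileal bile acid binding protein, had H2-Aa at 211 CPM, while one led by Reg1 had 56.8 CPM. Large intestinal goblet-like cells ranged down to a cluster at 25.2 CPM. Several large intestinal clusters that could not be named were above the stem-like cells or near them, among them one led by Trf, Nxpe2 and Fut9 (277 cells, 648 CPM) and one led by Tgm3, Clca4b and Ly6g (209 cells, 636 CPM). The latter scored highest for colonocyte markers without any of them leading it, while the lowest named colonocyte-like cluster had H2-Aa at 75.2 CPM.

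**Figure D2:**
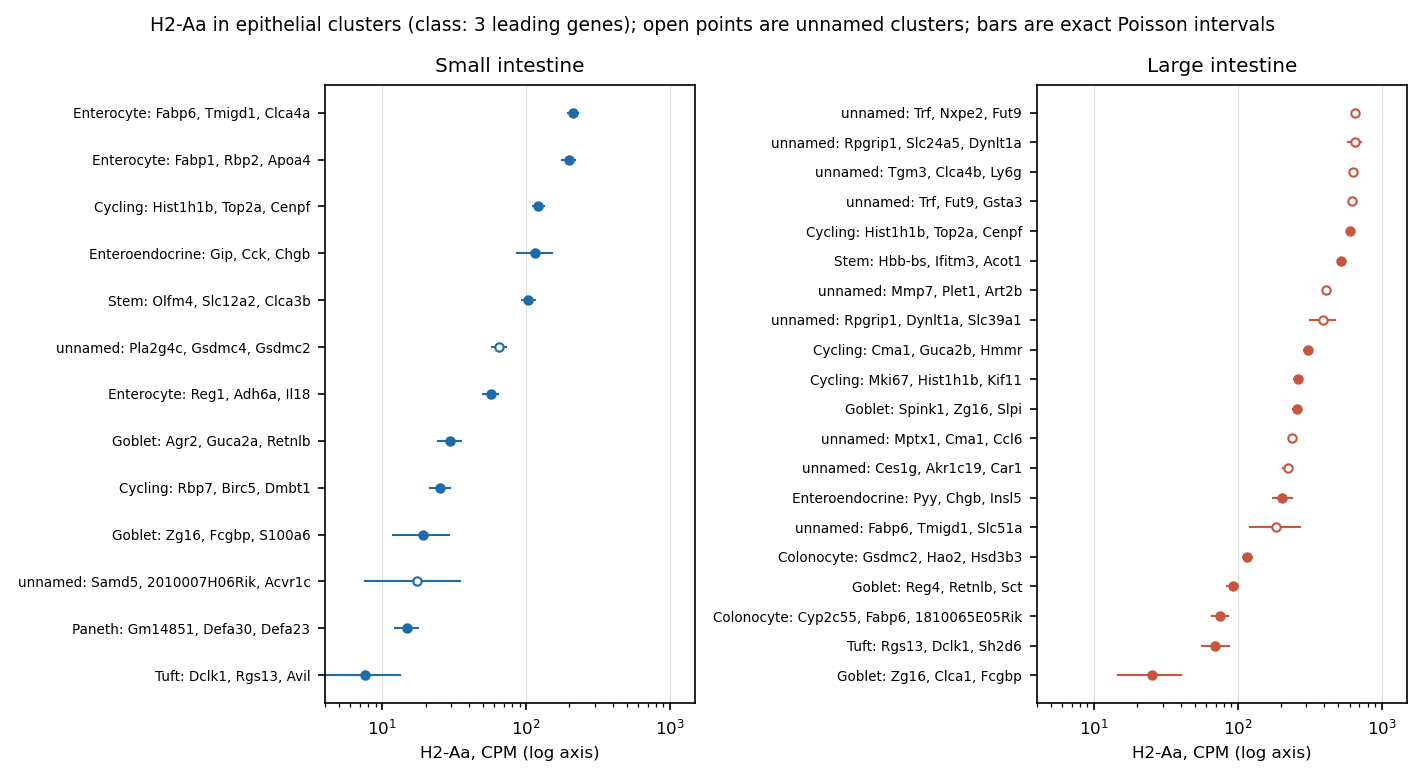
H2-Aa level (CPM, log axis) in each epithelial cluster of the small and of the large intestinal library, ranked, with 95% exact Poisson intervals. Filled points are clusters with a class name and open points unnamed clusters; the small intestinal clusters reach 211 CPM and the large intestinal ones 648 CPM, and tuft-like clusters lie near the bottom of both.

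Stem-like cells were set against the mature absorptive class of the same library. The class II sum of the small intestine was at 1306 CPM [1269, 1343] in stem-like and 1330 CPM [1307, 1353] in enterocyte-like cells, a log2 ratio of −0.03 [−0.07, 0.02]. None of the 7 members passed 2-fold in either direction, against 31.5% of genes higher and 15.5% lower, and their median log2 ratio was −0.20 beside 0.40 over all genes. The members were split around 0: Ciita at 0.86 and H2-Eb1 at 0.38 lay to the stem-like side, H2-DMb1 at −0.80, H2-DMa at −0.48 and H2-Aa at −0.34 to the enterocyte-like side. The sum ranged from −0.50 with a looser cell filter to 0.30 with doublets kept, so no order of these classes holds. With a stricter or a looser cell filter or at resolution 0.5, 1 member passed 2-fold lower, and with doublets kept 1 passed 2-fold higher.

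All 7 members were at least 2-fold higher in the stem-like than in the colonocyte-like class of the large intestine, against 12.9% of genes, with a median log2 ratio of 2.36 beside 0.20 over all genes. The sum was at 4511 CPM [4481, 4541] against 885 CPM [867, 904], a log2 ratio of 2.35 [2.32, 2.38]. The highest single ratio was that of Ciita, 2.91 [2.42, 3.45], and the lowest that of H2-DMb1, 1.99 [1.79, 2.19]. The size depends on which cells count as mature. When the unnamed clusters that scored highest for colonocyte markers were added to that class, among them the Tgm3 and Clca4b cluster, the log2 ratio of the sum was 1.30 [1.28, 1.32] and 5 of 7 members stayed past 2-fold. Whether the tissues differ in this contrast was not tested, as each is 1 library.

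Goblet-like and tuft-like cells, as named, were below the stem-like cells in both tissues for nearly all members. The large intestinal goblet-like class leaves out an unnamed cluster of 492 cells that scored highest for goblet markers. It also leaves out one of 327 cells with goblet markers among its leading genes. At 2000 UMIs, H2-Aa, H2-Ab1, H2-Eb1 or Cd74 was seen in 80.3% and 93.2% of their cells with a Reg3b or Reg3g UMI. Goblet-like and stem-like cells had 68.5% and 96.9%. In cells without such a UMI these shares were 84.6%, 80.3%, 62.8% and 89.1%. In goblet-like over stem-like cells, 6 of 7 members were at least 2-fold lower in each tissue, against 27.6% of genes in the small and 25.3% in the large intestine, with medians of −2.28 and −2.22. The exception was H2-DMb1, at −0.88 and −0.20: in the large intestine it stood at 80.8 CPM in goblet-like and 92.7 CPM in stem-like cells, while its partner H2-DMa stood at 20.2 and 116 CPM. All 7 members were at least 2-fold lower in tuft-like than in stem-like cells of each tissue, against 20.2% and 11.3% of genes, with medians of −3.12 and −2.91, where the 2 Ciita UMIs of small intestinal tuft-like cells were set to 3. Large intestinal enteroendocrine-like cells were also lower for all 7, against 8.48% of genes, with the sum at −1.29 [−1.36, −1.21]. Small intestinal enteroendocrine-like cells, in which 1 cell held most H2-Aa UMIs, had the sum at −0.66 [−0.82, −0.50].

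Class II was lower in the small than in the large intestinal droplet epithelium for every member. Each tissue is 1 library, and tissue cannot be told apart from other differences between these libraries, such as the Reg3g levels given below beside those of the sections. All 7 were at least 2-fold lower in the named epithelial classes of the small intestine, against 15% of genes, with a median log2 ratio of −2.02 beside −0.32 over all genes. The sum was 727 CPM [719, 736] in the small and 3057 CPM [3044, 3070] in the large intestine, a log2 ratio of −2.07 [−2.09, −2.05]. H2-Aa had the ratio farthest from 0, −2.48 [−2.54, −2.43], and H2-DMa the nearest, −1.47 [−1.57, −1.38], with Ciita at −1.70 [−1.93, −1.48]. Under other cell filters, clusterings and scalings the sum stayed between −2.50 and −1.11, the latter with a looser cell filter that also changed which clusters carried a name and left 5 of 7 members past 2-fold.

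Classes named in both tissues were also compared one by one. In stem-like cells 6 of 7 members were at least 2-fold lower in the small intestine, against 7.95% of genes, with Ciita at −0.83 the exception, and in cycling-like cells all 7, against 12.1%. Goblet-like cells had 6 of 7 lower, against 10.2% of genes, and the sum in tuft-like cells was at −2.70 [−3.00, −2.42]. The sum in enteroendocrine-like cells was at −1.16 [−1.33, −0.995], but 1 cell held most H2-Aa UMIs of that class in the small intestine. This ratio is therefore not interpreted. The mature absorptive classes carry different names, with the sum at 1330 CPM in enterocyte-like cells of the small and 885 CPM in colonocyte-like cells of the large intestine, and their order depends on which clusters carry the colonocyte-like name. Immune classes did not share this size of difference: the sum was at −0.10 in B-like, −0.34 [−0.36, −0.32] in macrophage/monocyte-like and 0.18 [0.14, 0.22] in plasma-like cells. Differences between the classes in this ratio were not tested. In T/NK-like and smooth muscle/pericyte-like cells 1 cell held most class II UMIs in 1 of the libraries (59.7% of 248 and 80.5% of 711), so the ratios of those classes are not interpreted.

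**Figure D3:**
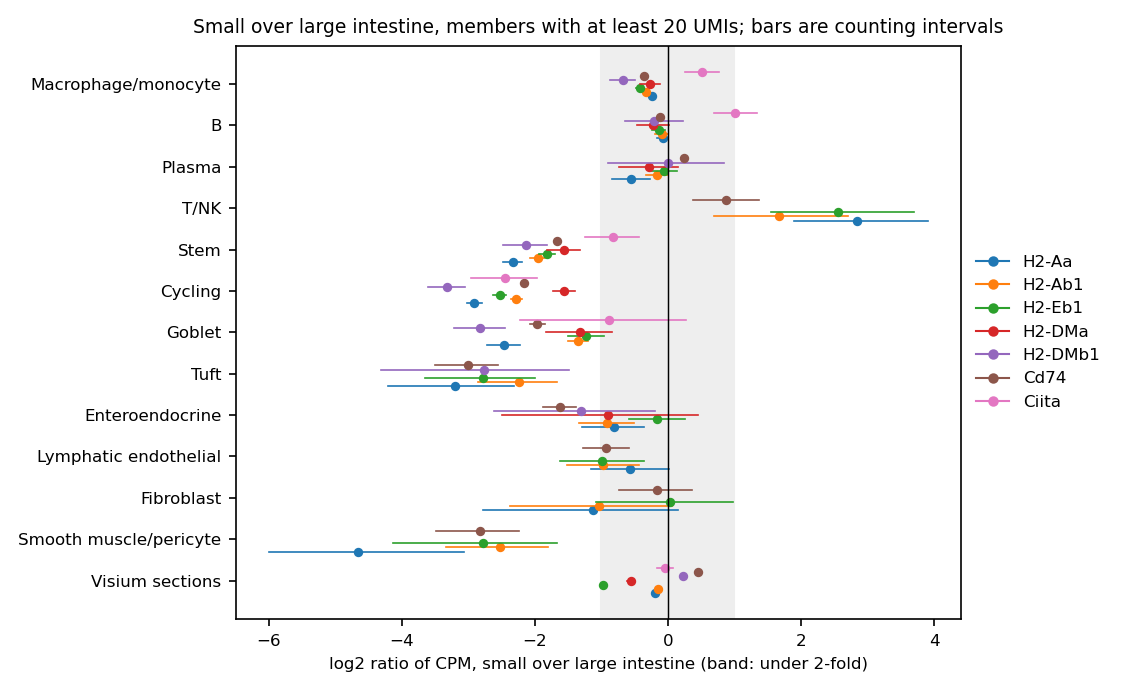
log2 ratio of small over large intestine for each of the 7 members, by cell class of the droplet libraries and for the summed Visium sections, with 95% exact intervals. The grey band marks less than 2-fold. The stem-like, cycling-like, goblet-like and tuft-like classes lie mostly below it, the B-like, macrophage/monocyte-like and plasma-like classes and the sections mostly inside it, apart from Ciita in B-like cells at 1.01.

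Endothelial cells carried little class II, and more of it in lymphatic than in blood vessels. The small intestinal lymphatic endothelial-like cells (348 cells, median depth 3440 UMIs) had a sum of 282 CPM from 349 UMIs, against 96.3 CPM from 14 UMIs in 39 blood endothelial-like cells, a log2 ratio of 1.55 [0.78, 2.44]. For the large intestine (206 and 87 cells) the sum was 497 CPM from 282 UMIs against 236 CPM from 94 UMIs, a log2 ratio of 1.07 [0.73, 1.42]. With counts under 3 set to 3, in each tissue 3 of the 4 members with enough UMIs were past 2-fold higher. The shares of all genes were 12.1% in the small and 15.4% in the large intestine. With 14 class II UMIs in small intestinal blood endothelial-like cells, a member could have enough UMIs there only through the lymphatic cells. The small intestinal count therefore cannot show which class is higher, and the order there rests on the sum. The large intestinal difference was lost with a stricter cell filter, where the log2 ratio was 0.07 [−0.24, 0.38] and 0 of 4 members passed 2-fold.

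Macrophage RNA was measured beside class II in the lymphatic cells. Any of the 3 presenting chains was seen in 18.2% of 258 thinned lymphatic cells of the small intestine, with 6.67% of 30 blood endothelial-like and 10.7% of 56 smooth muscle/pericyte-like cells, and in 27.6%, 19.4% and 11.2% in the large intestine. C1qb stood at 12.1 and 21.1 CPM in the lymphatic classes of the small and the large intestine. The blood endothelial-like cells had 0 UMIs of it, which allows up to 20.6 and 7.54 CPM, so no difference was detectable at this depth in the small intestine. Per 1000 Cd74 UMIs that is 100 and 91.6 C1qb UMIs, against 182 and 171 in macrophage/monocyte-like cells. Its part in the lymphatic class II level was not tested. Ciita gave 10 UMIs in 9 of 348 small intestinal lymphatic cells and 0 UMIs in the 206 large intestinal ones.

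Of the other class II pathway genes, 2 of 8 measured in the small and 2 of 6 in the large intestine were at least 2-fold higher in lymphatic cells, against 12.1% and 15.4% of all genes, and 0 were lower in either. Lgmn, an endosomal protease, stood at 147 CPM in lymphatic and 20.6 CPM in blood endothelial-like cells of the small intestine, and at 178 and 37.7 CPM in the large. Ctsb, another endosomal protease, had log2 ratios of 1.56 and 1.31. Of the 10 measured interferon gamma pathway genes in the large intestine 0 were higher and 6 lower in lymphatic cells, where 12.2% of all genes were lower, with Gbp4 lowest at −3.30.

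The cultured epithelium held little class II. In 538 control organoid cells the 7 genes together gave 348 UMIs of 43279721, a sum of 8.04 CPM [7.22, 8.93], against 727 CPM in the small intestinal tissue epithelium, a log2 ratio of −6.50 [−6.66, −6.35]. All 7 members were at least 2-fold lower in organoids, against 17.1% of genes, with a median of −6.83 beside 0.09 over all genes, where H2-Aa and Ciita, with under 3 UMIs in organoids, were set to 3 UMIs and so stand at a bound. H2-Aa gave 0 UMIs in the control and 0 UMIs in the cocultured organoids. Set against 3 UMIs in the control organoids, the tissue epithelium was at least 971-fold higher.

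The residue in organoids was uneven between the members. Cd74 gave 27 UMIs (0.624 CPM, log2 ratio to tissue −9.40), H2-Eb1 12 (−8.10), H2-DMb1 6 (−6.83) and Ciita 1 UMI, or 0.0231 CPM against 4.92 CPM in tissue. H2-Ab1 with 170 UMIs (3.93 CPM, −4.87) and H2-DMa with 132 UMIs (3.05 CPM, −3.19) made up most of the sum. H2-DMa was found in 19.5% of control organoid cells, and the top cell held 2.27% of its UMIs. H2-Ab1 was less even: it was found in 13.8% of the cells, the top cell held 8.82% of its UMIs, and 2 clusters with 78 and 36 cells held 69 and 44 of the 170. Epcam, the marker of epithelium, was found in 96.8% of the cells.

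Class II was as low beside the coculture partner. The sum in 1028 cocultured cells was 8.14 CPM [7.58, 8.73] from 789 UMIs, a log2 ratio to control of 0.02 [−0.17, 0.20]. Of the 4 members with enough UMIs, 0 were at least 2-fold higher, against 2.73% of genes, and 1 was lower, against 4.17%. That one was Cd74, with 28 UMIs against 27, a log2 ratio of −1.11 [−1.93, −0.29]. With a looser cell filter its ratio was −0.96 and 0 members passed 2-fold. H2-Ab1 was at 3.71 CPM against 3.93 CPM and H2-DMa at 3.67 CPM against 3.05 CPM. This comparison and that with tissue share the control organoids.

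Other genes of the class II pathway were not lower in culture as a list. Of 14 measured, 1 was higher, against 12% of all genes, and 1 lower than in tissue epithelium, against 17.1%, with a median of 0.09: Ctsl, an endosomal protease, at 3.08 and Cd83, which stabilises class II at the surface, at −2.25. Of 14 class I pathway genes 0 were higher and 6 lower, beside these same shares, with a median of −0.58, and Nlrc5, the class I counterpart of Ciita, stood at 0.0462 CPM against 0.706 CPM. Of 14 interferon gamma pathway genes 1 was higher, Cxcl10 at 2.91, and 5 were lower, among them Gbp7 at −4.72 and Ido1, with 0 UMIs in organoids and 7.41 CPM in tissue. The defence lectins Reg3b and Reg3g, which respond to microbes, were at −14.99 and −8.65. Between the cultures, 0 of 14 other class II genes and 0 of 13 class I genes passed 2-fold in either direction, while Reg3b was at 6.22 CPM in coculture against 0.185 CPM in control. Of 12 interferon gamma genes 1 was higher there, against 2.73% of all genes, and 1 lower, against 4.17%.

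The proportions between members differed by cell type. For every 1000 UMIs of Cd74 there were 434 [422, 446] of H2-Aa in macrophage/monocyte-like cells of the small intestine and 401 [394, 407] in those of the large, 293 and 284 in B-like cells, and 132 [119, 146] and 210 [206, 214] in stem-like cells. Stem-like cells thus had fewer H2-Aa UMIs per Cd74 UMI than either professional class, as did goblet-like cells of the small intestine, at 199 [168, 234]. Goblet-like cells of the large intestine, at 283 [269, 297], and the few UMIs of tuft-like cells, at 273 [141, 476] in the small and 310 [248, 383] in the large intestine, overlapped B-like cells. Ciita per 1000 Cd74 was 37.2 in small and 17.0 in large intestinal B-like cells, 16.8 and 9.22 in macrophage/monocyte-like cells and 19.0 and 10.6 in stem-like cells, so that it was higher in the small intestine in each of these 3 classes.

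The UMIs of the H2-DM genes stood in different ratios as well. The log2 ratio of H2-DMb1 to H2-DMa UMIs was −1.62 [−1.89, −1.36] in small and −1.63 [−2.06, −1.22] in large intestinal B-like cells, and −0.79 and −0.37 in macrophage/monocyte-like cells. In cycling-like epithelium it was −1.62 [−1.94, −1.31] in the small and 0.15 [0.07, 0.23] in the large intestine. The large intestinal goblet-like cells were at the other end, at 2.0 [1.79, 2.22]. The genes of H2-O, which holds H2-DM in check in B cells, were counted with H2-DMb2: H2-DMb2, H2-Oa and H2-Ob together gave 72.3 and 75.3 UMIs per 1000 Cd74 in B-like cells of the small and the large intestine, 1.82 and 4.48 in macrophage/monocyte-like cells and 0.339 and 0.398 in stem-like cells. H2-DMb1 and H2-DMb2 are near copies, and how reads were split between them is not given in the sources used here.

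**Figure D4:**
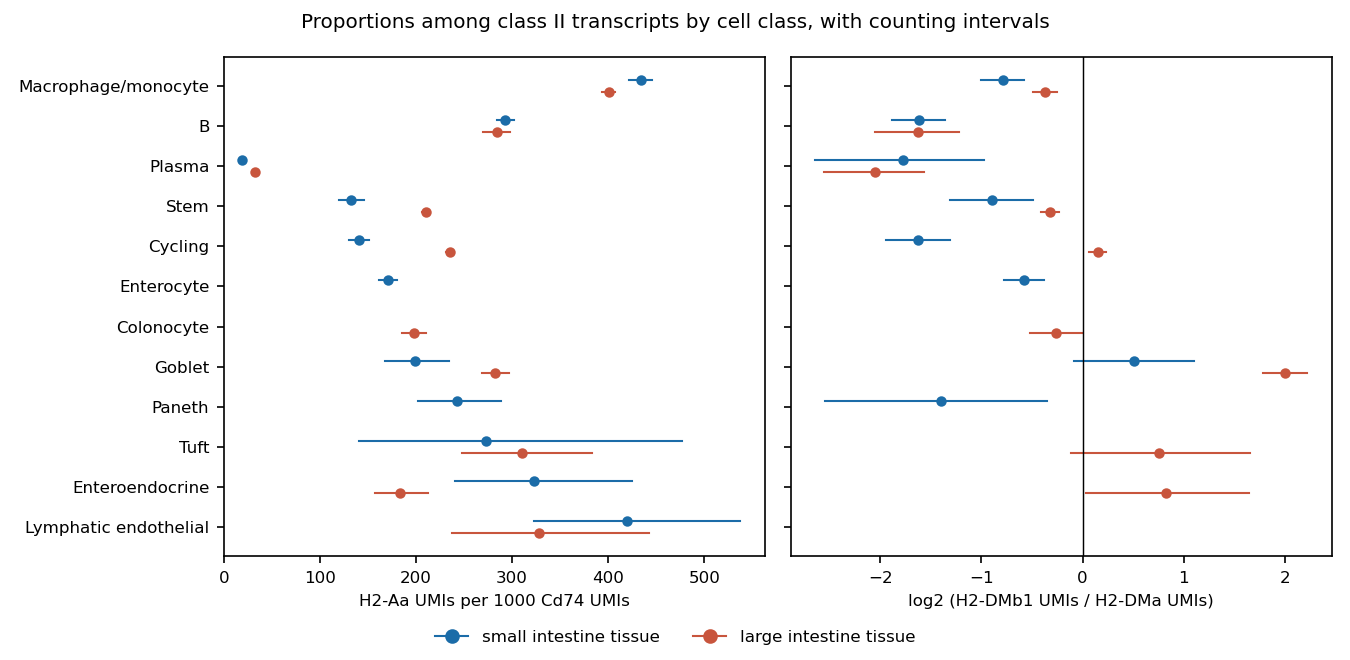
Left, H2-Aa UMIs per 1000 Cd74 UMIs by cell class; right, log2 ratio of H2-DMb1 to H2-DMa UMIs, both for the small and the large intestinal library with 95% exact intervals. Macrophage/monocyte-like cells lie highest on the left (434 and 401) and plasma-like cells lowest (18.9 and 32.6); on the right the large intestinal goblet-like cells lie highest, at 2.0.

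Of 16 measured interferon gamma pathway genes, 10 were at least 2-fold lower in the small than in the large intestinal epithelium, against 15% of all genes, and 0 were higher, against 8.77%, with a median of −1.53. Iigp1, a GTPase of cell-intrinsic defence, was at −6.45 and the chemokine Cxcl9 at −5.75. Of 14 class I pathway genes 2 were higher and 5 lower, with Nlrc5 at −2.44 and the non-classical class I gene H2-Q1 at 3.18. Of 15 other class II pathway genes, 0 were higher, against the same 8.77% of all genes, and 1 was lower, against 15%. The lower one was the endosomal protease Ctsl, at −2.15.

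Along the stem to colonocyte axis of the large intestine, 9 of 15 interferon gamma genes were higher in stem-like cells, against 12.9% of all genes, and 0 lower, against 10.5%, with a median of 1.68, Cxcl9 at 4.02 and Cxcl10 at 10.6 CPM against 0.1005 CPM. Among 14 class I genes, 4 were higher and 2 lower, with Nlrc5 at 2.94. The small intestinal axis gave other counts: in stem-like over enterocyte-like cells 0 of 10 interferon gamma genes were higher, against 31.5% of all genes, and 3 lower, against 15.5%. There 10 of 13 class I genes were lower, with a median of −1.22.

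Epithelial cells were also split by the presenting chains themselves. They were thinned to 10000 UMIs and split by whether a UMI of H2-Aa, H2-Ab1 or H2-Eb1 was left, over all epithelial clusters, so that negative cells may still hold Cd74. This left 3221 positive and 358 negative cells in the large intestine. Positive cells had Iigp1 at 119 CPM against 15.9 CPM, a log2 ratio of 2.90 [2.52, 3.30], and the tryptophan-degrading enzyme Ido1 at 30.1 against 0.838 CPM (5.17 [3.62, 7.45]). The immunoproteasome subunit Psmb8 was at 335 against 72.3 CPM (2.21 [2.03, 2.39]) and B2m, the class I light chain, at 646 against 302 CPM (1.10 [1.01, 1.19]). The receptor gene Ifngr1 was at −0.45, and the constitutive RFX subunits Rfx5 and Rfxank at −0.46 [−1.09, 0.22] and −0.62 [−1.10, −0.11].

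The small intestine, with 772 positive and 509 negative cells, gave smaller ratios, some of opposite sign. Ido1 was at 0.48 [−0.23, 1.23], Iigp1 at −1.89 [−3.19, −0.71] and Gbp2, a guanylate-binding protein, at −3.14 [−4.86, −1.75]. Psmb8 was higher in positive cells there too, at 0.94 [0.78, 1.10], as was B2m at 0.46 [0.38, 0.54]. Positive and negative cells differ in their classes as well, which these ratios over all epithelial clusters do not hold fixed. The difference between the tissues was not tested.

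Cells were also split by a UMI of the microbe-responsive lectins Reg3b or Reg3g. At 2000 UMIs, H2-Aa, H2-Ab1, H2-Eb1 or Cd74 was seen in 49.8% of 1014 Reg3-positive and 35.1% of 485 Reg3-negative epithelial cells of the small intestine, and in 87.1% of 2126 and 76.0% of 1813 in the large intestine. Within stem-like cells the shares were 78.6% and 65.0% in the small and 96.9% and 89.1% in the large intestine. Within colonocyte-like cells they were 51.9% and 25.9%, and within tuft-like cells 34.4% and 31.8% in the large and 7.1% and 11.3% in the small intestine. The small intestinal tuft-like share rests on 2 of 28 positive cells. At 10000 UMIs the shares over all epithelial clusters were 74.8% and 62.2% in the small and 94.7% and 93.9% in the large intestine, where most cells of the latter were positive. Colonocyte-like cells then had 74.04% and 64.6%. The tuft-like shares changed direction at that depth, to 36.4% and 29.4% in the small and 76.1% and 89.5% in the large intestine. At 2000 UMIs the Tgm3 and Clca4b cluster of the large intestine went the other way, with 61.4% and 67.3%, as did a few other clusters there and unlike most of them. At 10000 UMIs most of the large intestinal clusters whose shares differed had the higher share in negative cells, with nearly all cells of many clusters positive, so the direction depends on depth. These differences were not tested, and no background share from cells outside the epithelium was taken for this split.

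Genes whose levels followed class II were ranked by Pearson correlation with the mean of H2-Aa, H2-Ab1, H2-Eb1 and Cd74, on log2(CPM + 10), as a description over points that share 2 libraries. Over 29 named classes and 11775 genes the first were Ctss at 0.892, Snx5 at 0.881, Spi1 at 0.864, Tlr1, Cyp4f18, Themis2, Ly86, Fcgr2b, Syk and March1 at 0.840, and Ciita had 0.874. Over 33 epithelial clusters the leading genes were others: Gpx2 at 0.876, Ifi47 at 0.831, Cd81, Smpdl3b, Psmb8 at 0.797, Cd14, Mettl9, Urah, Gstt2 and Magohb at 0.766. Ciita itself had 0.817 there, Nlrc5 0.592 and Rfx5 −0.132. Within the 20 large intestinal epithelial clusters Psmb8 led at 0.862, with Gpx2, Ifi47, Cd14, Kars, Prdx1, Nme2, Psme1 and Psmb10 among the next and Ciita at 0.884. Within the 13 small intestinal ones Slc16a10 led at 0.922, with Prkg2, Zyx, Smpdl3b, Ptprg, Lnx1, Lrrc1, Galm, Tnfsf10 and Prlr next and Ciita at 0.827.

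In tissue sections the 2 intestines had nearly the same total class II. A spot covers a small region with several cells, so fewer cells of a type and less RNA per cell cannot be told apart. The class II sum was 2567 and 2935 CPM for the small intestine (section 1, section 2) and 2824 and 2988 CPM for the large, ranges that overlap. Summed over sections the log2 ratio of small over large was −0.07 [−0.08, −0.06], and it took the opposite sign, 0.01, without small intestinal section 1. None of the 7 members passed 2-fold in either direction, against 16.1% of genes higher and 14.7% lower.

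Single members differed between the tissues by more than the duplicates did. H2-Eb1 read 232 and 229 CPM for the small intestine against 453 and 454 CPM for the large, with a log2 ratio of −0.98 [−1.01, −0.95]. Cd74 went the other way, with 941 and 1077 CPM against 667 and 815 CPM, a log2 ratio of 0.45 [0.43, 0.47]. H2-DMa was at 66.7 and 64.1 against 92.1 and 99.7 CPM, and for these 3 genes the sections of the tissues did not overlap. Ciita read 17.7 and 18.1 CPM against 18.7 and 18.1 CPM, with little difference between tissues. C1qb read 42.5 and 46.6 CPM for the small intestine against 136 and 139 CPM for the large, and the part of macrophages in the class II levels was not tested.

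Reg3g and the interferon gamma genes were also read in the sections. Reg3g read 15166 and 14047 CPM in small but 28.4 and 33.7 CPM in large intestinal sections. By contrast, the epithelial classes of the droplet libraries had Reg3g at 2277 CPM (small) and 1709 CPM (large), and the stem-like cells at 296 CPM (small) and 2358 CPM (large). The large intestinal droplet library thus held Reg3g at a far higher level than the sections of that tissue. Of 17 interferon gamma genes in the sections 3 were higher, against 16.1% of all genes, and 3 lower, against 14.7%, in the small intestine, with a median of −0.18, which is near the background. Cxcl9, one of the lower ones, read 6.08 CPM against 29.97 CPM. The epithelial class II difference was measured in 1 droplet library per tissue, and the sections, which average over all cells of a spot, gave no such difference for the sum.

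Spots were clustered into regions, named here by their leading genes. The class II sum of the small intestine (section 1, then section 2) was highest in the region led by the plasma cell genes Iglc1 and Jchain, at 4362 and 4585 CPM, followed by regions led by Pyy and Nts (4130 and 4083), by Clca4a and Ada (3603 and 4222) and by Fabp1 and Rgs13 (3660 and 3896). It was lowest in the region led by the proliferation genes Birc5 and Ube2c, at 1328 and 1438 CPM, and was 2037 and 2101 CPM in the region led by the Paneth cell defensin Defa22. The 4 highest regions and the lowest were the same in both duplicates. Of these, the Pyy and Nts region held only 17 spots over both sections. The Fabp1 and Rgs13 region held 103 and the Clca4a and Ada region 1008.

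The highest regions of the large intestine were led by Clca4b and Ifit1bl1 (4190 and 4571 CPM), by the lymphatic genes Ccl21a and Mmrn1 (4325 and 4409 CPM) and by Slc37a2, Apol7c and Tgm3 (3936 and 4100 CPM). The lowest was led by Retnlb and Pla2g4c, at 1276 and 1334 CPM. The top regions differed in the members that made up the sum. H2-Eb1 stood at 937 and 895 CPM in the Ccl21a and Mmrn1 region and at 431 and 449 CPM in the Clca4b and Ifit1bl1 region, where H2-Aa reached 1476 and 1450 CPM. Clca4b also led the unnamed droplet cluster with H2-Aa at 636 CPM.

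**Figure D5:**
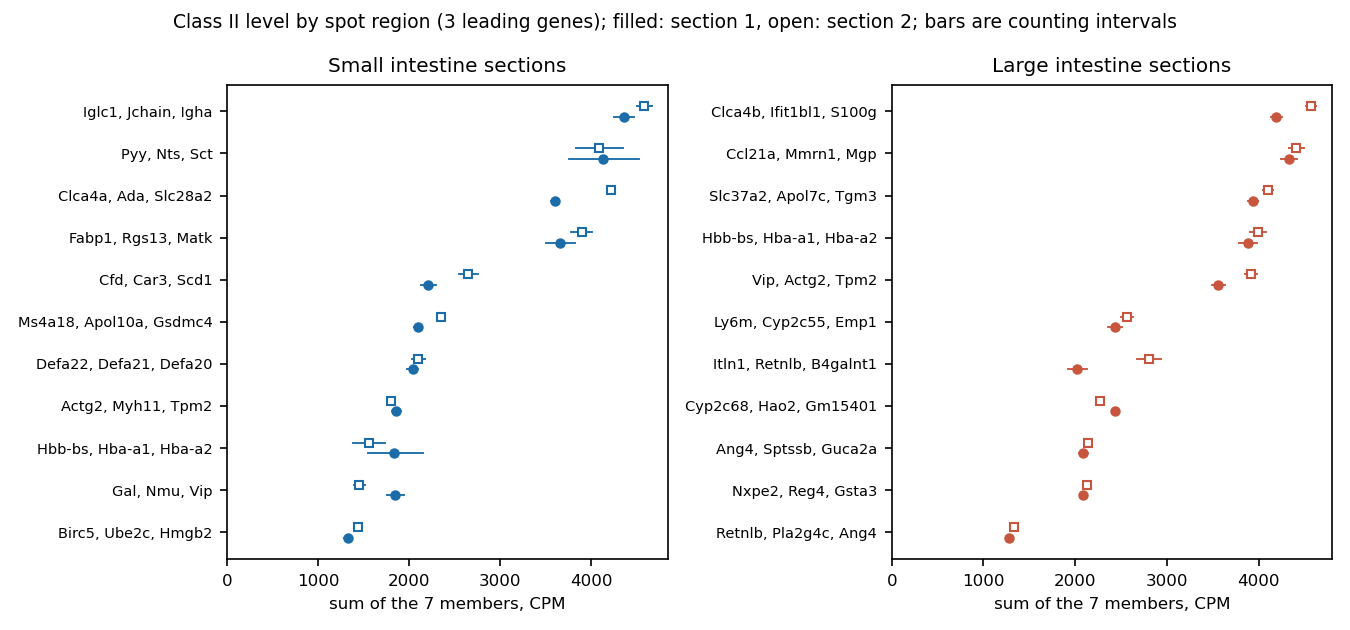
Class II sum (CPM) in each spot region of the small and the large intestine, regions named by their leading genes, with section 1 filled and section 2 open. The duplicates lie close together except in the large intestinal region led by Itln1 (2020 and 2800 CPM), and the highest small intestinal region is led by Iglc1 and Jchain (4362 and 4585 CPM) and the lowest by Birc5 and Ube2c (1328 and 1438 CPM).

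Splitting spots by marker content gave a like order. With spots thinned to 2000 UMIs, small intestinal spots above the median of enterocyte markers had more class II UMIs than those at or below it, with log2 ratios of 0.83 and 1.03 in sections 1 and 2, and spots with a stem cell marker UMI had fewer, at −0.34 and −0.48. Macrophage markers gave 0.11 and −0.11 there, so the sections disagreed in sign. Large intestinal spots with a macrophage marker UMI were higher, at 0.43 and 0.41, as were spots rich in colonocyte markers, at 0.36 and 0.43, and spots with a lymphatic marker UMI, at 0.29 and 0.32. Stem marker spots were lower there too, at −0.20 and −0.21, whereas in the droplet library the large intestinal stem-like cells were above the colonocyte-like ones.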

How the data were processed

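The deposited matrices hold UMI counts per gene and barcode. The authors made the droplet counts with Cell Ranger 6.0.1 against the mm10 build, per the submitters' processing notes and the file headers, and the Visium counts with Space Ranger 1.2.1, per the file headers. The annotation release is not given in the sources used here.

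Barcodes under 500 detected genes or above 20% mitochondrial UMIs were left out, and the highest Scrublet scores were removed at 0.8% per 1000 cells (61 of 2756 small intestinal, 306 of 6188 large intestinal, 2 of 540 control and 9 of 1037 cocultured cells). Spots under 500 UMIs were left out. Clusters came from 2000 variable genes, 30 components, 15 neighbours and Leiden resolution 1 (0.5 for spots) in scanpy 1.11.5 with leidenalg 0.10.2, without the members and lists. A class name needed at least 3 markers detected in 10% of cells. Details of this naming rule were changed after the clusters had been seen, and some alternatives were chosen after seeing the data. The members and gene lists were chosen with earlier results of these data known. The named genes are the members, at most 4 per list and comparison with the highest or lowest log2 ratio, and the 10 genes most correlated with class II, of which 1 is not reported here.

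With 1 library per group no test was made. Log2 ratios of CPM carry a 95% interval, exact for Poisson counting of both groups, with counts under 3 set to 3, and a gene counted as 2-fold changed only if its higher group held 20 UMIs or more. Shares carry exact Clopper-Pearson intervals. Poisson counts were simulated for the small over large intestinal epithelium (13027 genes), without variation between cells or libraries. There 95.7% of intervals held the true ratio and 98.5% of changed genes were called. As the intervals are exact for such counts, this checks the calculation and not how the intervals behave on the real cells. Calculations used Python 3.11.15, numpy 2.4.6, scipy 1.17.1, pandas 2.3.3 and matplotlib 3.10.9. Group labels of the sections came from their titles. Cell filters, doublets, resolution, scaling and single sections were varied.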

Additional observations from a re-analysis of the deposited data

Results flagged for a closer look

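For 4 members the sign differed between tissues in the stem-like over mature absorptive contrast. The log2 ratios were −0.34 in the small and 2.36 in the large intestine for H2-Aa, −0.20 and 2.44 for H2-Ab1, −0.48 and 2.05 for H2-DMa and −0.80 and 1.99 for H2-DMb1. Each tissue is 1 library and the difference between them was not tested. The mature class is enterocyte-like in one and colonocyte-like in the other, and the large intestinal ratio of the sum falls to 1.30 when the unnamed clusters that scored highest for colonocyte markers are counted as mature. The small intestinal signs do not hold for every setting: with doublets kept H2-Aa was at 0.094 and H2-Ab1 at 0.18, the same sign as in the large intestine.

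Class II was also present in barcodes left out for mitochondrial content. The class II sum stood at 478 CPM in 5497 such barcodes of the small intestine and at 1123 CPM in 2060 of the large intestine. Without mitochondrial UMIs in the total these were 1215 and 2318 CPM, and the corresponding organoid barcodes had 14.4 CPM (control) and 17.6 CPM (coculture).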

How the results depend on the processing

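All values here are log2 ratios of the class II sum unless a gene is named. Small over large intestinal epithelium (−2.07) gave −2.50 with a strict and −1.11 with a loose cell filter, −2.12 with doublets kept, −2.23 and −2.16 at resolutions 0.5 and 2, −2.22 without mitochondrial and ribosomal protein genes in the total, −1.90 as a mean of cells and −1.78 with median-of-ratios scaling. With all epithelial clusters it was −2.09, and −2.44 and −2.12 when these were combined with the strict and loose filters. The organoid over tissue ratio was −6.23 and the coculture over control ratio 0.31 as means of cells. Small intestinal stem-like over enterocyte-like cells (−0.026) gave 0.11 (strict), −0.50 (loose), 0.30 (doublets kept), −0.29 (resolution 0.5), 0.23 (without mitochondrial and ribosomal protein genes, and as a mean of cells), −0.45 (median of ratios) and 0.11 (unnamed clusters added), so its sign depends on these choices. Large intestinal stem-like over colonocyte-like cells (2.35) gave 1.68 (strict), 2.68 (loose), 2.53 (doublets kept), 1.88 and 1.65 (resolutions 0.5 and 2), 2.48 (without mitochondrial and ribosomal protein genes), 2.20 (median of ratios), 2.41 (without the top cell) and 1.30 (unnamed clusters added). The alternatives with all epithelial clusters, unnamed clusters added or the large intestinal stem-like contrast, and those for single members, were chosen after seeing the data. Lymphatic over blood endothelial-like cells (1.55 in the small and 1.07 in the large intestine) gave 2.55 (strict) and 2.62 (doublets kept) in the small and 0.067 (strict) and 1.68 (doublets kept) in the large intestine. Members past 2-fold there were 0 of 4 (strict) and 5 of 5 (doublets kept) in the large intestine, and 5 of 7 members stayed past 2-fold in the small over large intestinal epithelium under the loose filter. For the Visium sections (−0.070) the values were −0.22 without mitochondrial and ribosomal protein genes, −0.28 as a mean of spots and −0.087 with median-of-ratios scaling, and leaving out 1 section gave −0.18 (without small intestinal section 2) to 0.013 (without small intestinal section 1). The replicate block, pairing sections of the same number, gave −0.082, from −0.14 for section 1 and −0.026 for section 2. These sections share only a number. Single members gave 272 alternative values, of which 171 stayed within the interval, 95 moved and 6 changed sign: H2-Aa 0.094 and H2-Ab1 0.18 with doublets kept, H2-Eb1 −0.026 (loose), −0.11 (resolution 0.5) and −0.039 (median of ratios) in small intestinal stem-like over enterocyte-like cells, and H2-Eb1 −0.28 (strict) in large intestinal lymphatic over blood endothelial-like cells. The cause of these shifts was not tested. Depth limits the blood endothelial-like class, with 14 class II UMIs in the small intestine, and Ciita in endothelial-like, stromal and tuft-like cells and in organoids.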

Other observations

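Costimulatory and checkpoint genes, which class II-bearing cells use to steer T cells, were low in epithelium. Of the 8 on the list, 2 had enough UMIs for small over large intestinal epithelium: Icosl, the ligand of the costimulatory receptor ICOS, at 1.26 against 1.32 CPM, and Cd274, the checkpoint ligand PD-L1, at 0.428 against 0.542 CPM. Neither passed 2-fold. In the small intestine Icosl stood at 29.7 CPM in macrophage/monocyte-like and 99.8 CPM in B-like cells, and Cd274 at 61.2 and 18.6 CPM.

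The acute phase gene Saa1, a microbe-responsive gene of the intestinal epithelium, was the microbe-responsive gene with the lowest ratio in small over large intestinal droplet epithelium, at 0.655 against 122 CPM, and in the sections it read 3060 CPM for the small and 4606 CPM for the large intestine.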
